A study of Rattus norvegicus with 18 samples.

Results

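Arrays of the proximal sciatic nerve taken 6 h after transection were compared with arrays of the same nerve at 0 h, the time of surgery. There were 3 arrays of each time-point, chosen by their sample titles, which were 6 of the 18 arrays of the time course. All rats were adult male Sprague-Dawley animals of 180 to 220 g, with no engineered allele named, and their age was given only as adult. Under the same injected anaesthetic a 1 cm piece of the left sciatic nerve was cut out at mid-thigh, and 0.5 cm of the stump that stays joined to the spinal cord was collected. The sources used here do not say whether an array held 1 rat or a pool, so p-values measure only the spread between arrays, which may be technical. A level is the log2 of a probe's processed Cy3 signal minus that of the 75th percentile of its array, and a change is the mean level at 6 h minus the mean at 0 h. A gene was called where limma, fitted over all 18 arrays, gave a p under 0.01 and a Benjamini-Hochberg adjusted p under 0.05 over 32116 probes.

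Scanning of 0 h took place on 1 day and of 6 h on another, each group on 1 slide, so time cannot be told apart from scan day and slide in this comparison. Arrays of 1 h and 3 h shared the scan day of 6 h but lay on other slides, and the level at 6 h was also tested against both. Between 74.3% and 76.9% of spots were flagged as well above background at 0 h, against 93.5% in replicate 1 of 6 h and 79.1% and 73.4% in replicates 2 and 3. In what follows, above background means flagged in this way, and below background means only not flagged. Levels correlated at 0.985 to 0.992 between the arrays of 0 h and at 0.978 to 0.987 between those of 6 h. All 18 measured markers of myelin and Schwann cells were well above background on every array, as a nerve should show, Mbp, a basic protein of compact myelin, with levels of 5.88, 5.73 and 6.09 at 0 h and 5.55, 5.51 and 5.81 at 6 h. Skeletal muscle, which lies beside the nerve, gave a summed marker signal of 2400 times the 75th percentile in replicate 1 of 0 h, against 161 and 224 in the other arrays of 0 h and 659, 6.38 and 121 at 6 h. Without that array 6240 genes were called in place of 6807. In tissue RNA of this kind, fewer cells of a type and less RNA per cell cannot be told apart.

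A cut nerve becomes inflamed within hours. Cells at the cut release chemokines, small proteins that draw leukocytes, and cytokines such as interleukin-1 and interleukin-6, while the endothelium displays adhesion molecules that catch passing neutrophils and later monocytes. Schwann cells afterwards leave the myelinating state, lowering their output of myelin protein and lipid and switching on genes of repair.

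Of 27203 genes tested, 6807 were called at 6 h, which was 25.0%. Of all genes, 3271 (12.0%) were higher at 6 h and 3536 (13.0%) were lower. These shares are the background for the list counts against 0 h in this fit. An alternative has its own background, given for normexp below. The changes were uneven in size: 1514 genes were called with at least 2-fold higher signal (5.57%) and 250 with at least 2-fold lower signal (0.919%). A further description of scale is that 237 genes were well above background on all 3 arrays of 6 h and on none of 0 h, against 4 the other way. The split between higher and lower calls depended on scaling. The median change of all genes was 0.01 with the 75th percentile shift and −0.135 with a shift to the median of each array, which gave 2184 higher and 4620 lower. A fit with the 6 arrays of this comparison alone gave 3348 higher and 2356 lower.

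**Figure D1:**
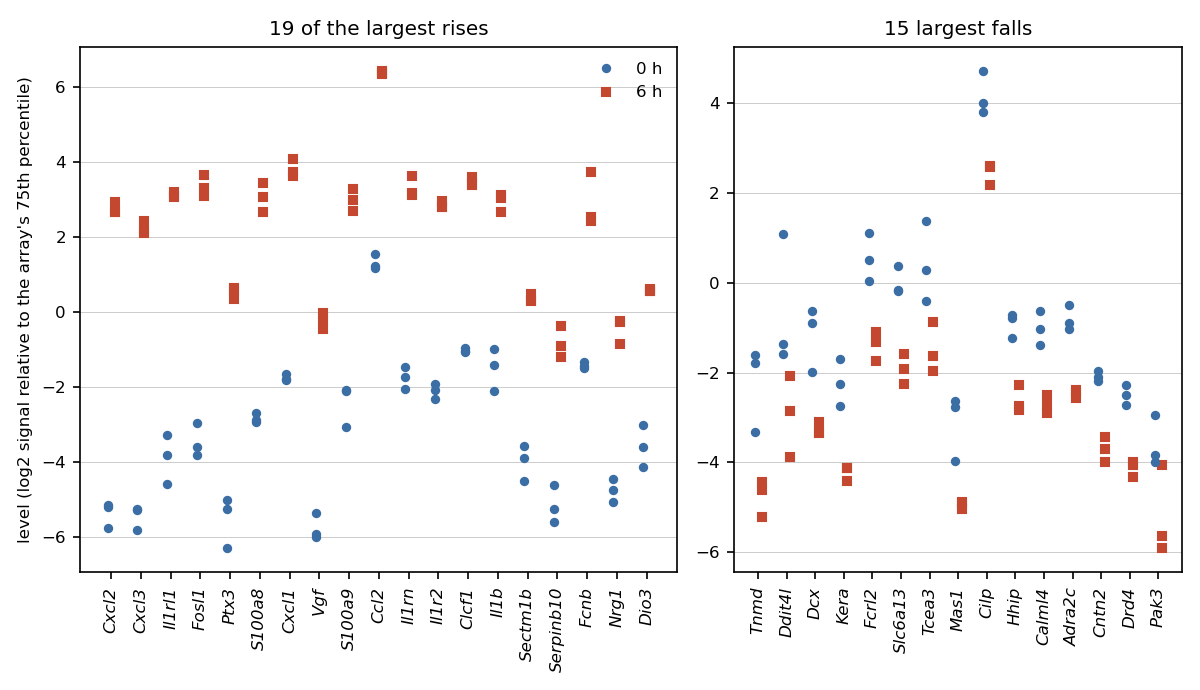
Levels (log2 signal relative to the array's 75th percentile) of 19 of the 20 genes with the largest rises and the 15 with the largest falls among called genes, each point 1 array of 0 h (blue circles) or 6 h (red squares). Cxcl2 lay between −5.75 and −5.14 at 0 h and between 2.66 and 2.92 at 6 h, while Tnmd, the largest fall, fell by 2.52 on the log2 scale.

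Chemokines made up several of the largest rises. Of 30 chemokine genes tested, 17 were called higher and none lower, with a median change of 1.94 against 0.01 for all genes. Members that passed the filter on dim probes only through 6 h had to differ from 0 h, so the lists most affected are also described over members above background on all 6 arrays. Of 25 such chemokines 12 were called higher, with a median change of 1.12. Against 1 h, where 24.0% of all genes were called, 11.4% higher and 12.6% lower, 13 chemokines were higher at 6 h and 1 was lower. With normexp background correction, an alternative that starts from the raw spot means, 10 chemokines were called higher. Of all 27203 genes, 980 were called higher and 846 lower with normexp, the background for every normexp count against 0 h. The ligands of CXCR2, the receptor that steers neutrophils, lie in a cluster on chromosome 14. Cxcl2 had levels of −5.18, −5.75 and −5.14 at 0 h and of 2.67, 2.66 and 2.92 at 6 h. These groups lay far apart and neither had a stray array. The change was 8.11 (SE 0.25, adjusted p = 1.61e-10), a 276-fold rise, read by a probe at chr14:18677236-18677295 of the rn4 build. Across the alternatives it lay between 6.53 and 8.22. Against 1 h Cxcl2 differed by 0.26 (adjusted p = 0.488), so its level at 6 h was not distinguishable from that at 1 h.

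Cxcl3, a close relative, went from −5.79, −5.24 and −5.27 to 2.16, 2.11 and 2.42, a change of 7.66 (SE 0.32, adjusted p = 2.97e-09). Unlike Cxcl2 it was also higher at 6 h than at 1 h, by 4.41, and than at 3 h, by 1.47 (adjusted p = 0.0197). Cxcl1 rose from −1.82, −1.79 and −1.64 to 4.08, 3.63 and 3.73 (change 5.57, SE 0.20, adjusted p = 5.85e-10). It was lower at 6 h than at 1 h, with a change of −0.75 (adjusted p = 0.0135). Cxcl6 was below background on all 3 arrays of 0 h and was at least 8.59-fold higher at 6 h (adjusted p = 1.92e-06, call lost with normexp). Such a bound sets the mean level at 6 h against the mean over the arrays of 0 h of a floor, which on each array is the dimmest signal well above background or, if higher, the signal of the probe itself. The 3 probes for Cxcl1, Cxcl2 and Cxcl3 matched each other at no more than 23 of their 60 bases in the same alignment.

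CC chemokines draw mainly monocytes and lymphocytes. Ccl2, the chief attractant of monocytes, had levels of 1.17, 1.23 and 1.55 at 0 h and of 6.35, 6.37 and 6.42 at 6 h, a change of 5.06 (SE 0.23, adjusted p = 1.18e-08) and a 33.5-fold rise. The arrays of 6 h differed by less than those of 0 h, and Ccl2 at 6 h differed from 3 h by −0.01 (adjusted p = 0.985). Ccl20, the ligand of CCR6, was below background on all 3 arrays of 0 h and had levels of −1.90, −1.17 and 0.24 at 6 h. It was at least 47.3-fold higher (adjusted p = 8.81e-07), with a change between 3.45 and 7.67 across the alternatives. Ccl7 rose 14.6-fold and Ccl3 11.8-fold (adjusted p = 7.44e-06 and 1.56e-05). Ccl12 was uneven at 0 h, with levels of −2.94, −3.96 and −0.98, and even at 6 h, with 0.86, 0.66 and 1.00 (change 3.47, SE 0.81, adjusted p = 0.00631). Not every chemokine passed the test. Cxcl12, a homing signal made without injury, changed by −0.07 (adjusted p = 0.7), and Cxcl10, an interferon target, had a level of 3.04 in replicate 3 of 0 h, above all 3 arrays of 6 h (change 1.25, adjusted p = 0.187). Without that array Cxcl10 was called, with a change of 2.16 (adjusted p = 0.0125).

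The stretches of promoter shown here are those of chemokines called higher and of Il1rn that hold a match to an NF-kB type motif, spelled GGG, then any 2 bases, then TTTCC. They were searched on both strands over the 250 bases before each gene's start in RefSeq promoters of the GRCr8 build. Capitals mark 1 match in each stretch, which for Ccl9 and Ccl20 lies on the other strand, and each stretch is written 5′ to 3′ along the gene.
Cxcl1, chr14:17479376-17479425, minus strand: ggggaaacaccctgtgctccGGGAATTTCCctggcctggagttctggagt
Cxcl2, chr14:17467300-17467349, minus strand: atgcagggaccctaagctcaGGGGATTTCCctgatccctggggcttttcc
Cxcl6, chr14:17596476-17596525, minus strand: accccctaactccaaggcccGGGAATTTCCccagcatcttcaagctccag
Ccl9, chr10:68868954-68869003, minus strand: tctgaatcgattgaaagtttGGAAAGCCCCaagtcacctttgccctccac
Ccl20, chr9:91837050-91837099, plus strand: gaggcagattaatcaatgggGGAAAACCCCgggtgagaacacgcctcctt
Il1rn, chr3:27520173-27520222, plus strand: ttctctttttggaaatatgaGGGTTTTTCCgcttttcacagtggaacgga
The match shown began 84, 74, 88, 106, 89 and 129 bases before the start of Cxcl1, Cxcl2, Cxcl6, Ccl9, Ccl20 and Il1rn. Cxcl1 and Cxcl2 each held a second match, 102 and 54 bases before the start, left in lower case in the stretch shown. That of Cxcl1 lies on the other strand. Ccl9 was well above background on 1 array of 6 h and none of 0 h, and its call was lost with normexp, with array weights and with the 6 arrays alone. A match was found in 5 of the 23 chemokine promoters listed (21.7%), and in 435 of all 33469 promoters (1.30%). Of the 12 listed promoters of the IL-1 family, 1 held it. A match is a description of the sequence, and nothing on these arrays measures the binding of a factor.

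Receptors of chemokines, which are carried mostly by leukocytes, were called in part. Of 13 tested, 6 were called higher and none lower (median change 0.41). With normexp 3 were higher, as were 4 of the 11 above background on all 6 arrays. The median was 0.11 with quantile normalization, 0.1 in the deposited matrix and 0.63 if replicate 2 of 6 h was dropped. Cxcr2, the neutrophil receptor of the ligands above, was well above background on 1 of 3 arrays of 0 h and on all 3 of 6 h, with levels of −6.25, −7.75 and −6.80 and then −1.80, −2.43 and −2.24. The groups did not overlap, as in 46.6% of all genes in either direction (adjusted p = 3.07e-05). The change of Cxcr2 lay between 2.27 and 5.12 across the alternatives. Ccr1 rose 4.14-fold and Ccr2, the receptor of Ccl2 on monocytes, 3.05-fold (adjusted p = 0.0011 and 0.00123). The call of Ccr2 was lost with normexp. Cx3cr1, a receptor of resident macrophages, changed by −0.28 (adjusted p = 0.516), and Cxcr4 by −0.23 (adjusted p = 0.424).

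In the IL-1 family, 12 of 14 genes were called higher and none lower, with a median change of 2.13, and 11 were also higher at 6 h than at 1 h. With normexp 6 were called higher. Over the 9 above background on all 6 arrays 8 were higher, with a median change of 1.91. The ligand Il1b had levels of −1.40, −2.09 and −0.99 at 0 h and of 3.04, 2.65 and 3.12 at 6 h (change 4.43, SE 0.33, adjusted p = 1.31e-06). Genes that restrain this signal rose as well. Il1rn, which encodes the receptor antagonist, went from −1.73, −1.46 and −2.04 to 3.16, 3.11 and 3.62 (change 5.04, SE 0.32, adjusted p = 2.69e-07). Il1r2, a decoy receptor, went from −2.07, −2.31 and −1.92 to 2.80, 2.79 and 2.96 (change 4.95, SE 0.27, adjusted p = 5.66e-08).

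Il1rl1, the receptor of interleukin-33, gave the largest change of the family among probes above background on all 6 arrays. Its levels were −3.82, −3.26 and −4.56 at 0 h and 3.2, 3.06 and 3.10 at 6 h, a 128-fold rise (change 7.0, SE 0.38, adjusted p = 5.94e-08). At 1 h its mean was −3.89, close to that of 0 h, and the difference from 1 h was 7.01 (adjusted p = 1.11e-07). Its ligand Il33 had levels at 0 h of 4.22, 4.24 and 4.38, and changed by 0.20 (adjusted p = 0.305). Il1a was below background on all 3 arrays of 0 h and at least 7.87-fold higher at 6 h (adjusted p = 1.59e-05), a call lost with normexp. The signalling chains Il1r1 and Il1rap rose 3.76-fold and 2.10-fold (adjusted p = 7.64e-05 and 0.000137), the call of Il1r1 being lost with normexp.

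Among 16 genes of the IL-6 family and the colony stimulating factors, 9 were called higher and 1, Il11ra1, lower, with a median change of 1.21. With normexp 4 were higher and none was lower. Of the 12 above background on all 6 arrays 6 were higher (median change 0.8). Il6 gave the largest bound of any gene named here. It was below background on all 3 arrays of 0 h, had levels of 0.58, 0.58 and 0.36 at 6 h, and was at least 129-fold higher (adjusted p = 1.39e-10). Across the alternatives its change lay between 4.98 and 9.19 on the log2 scale. Clcf1, a ligand of the ciliary neurotrophic factor receptor, had levels of −1.03, −0.96 and −1.07 at 0 h and of 3.59, 3.44 and 3.39 at 6 h (change 4.49, SE 0.17, adjusted p = 9.30e-10). Its mean at 1 h was −0.96, so its rise came after the first hour. Cntf itself, which Schwann cells hold in store, was measured at 5.66, 5.77 and 6.21 and then 5.72, 5.92 and 5.85 (change −0.05, adjusted p = 0.848), and its groups overlapped.

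The growth factors of granulocytes and macrophages, Csf3 and Csf2, were below background on all arrays of 0 h and were at least 5.45-fold and 12.4-fold higher at 6 h (adjusted p = 8.81e-07 and 1.26e-05). Both calls were lost with normexp. Csf1, which sustains macrophages, rose 2.50-fold (adjusted p = 0.000121). Lif changed by 1.1 (adjusted p = 0.0286), but the call was lost under 10 of the alternatives, with replicate 1 of 0 h at −4.96 and the other two at −3.25 and −3.35. Of 19 genes of the JAK, STAT and SOCS families, which carry and damp this signal, 7 were called higher and 1 lower (median change 0.38). Socs3, the inhibitor that IL-6 type cytokines induce, rose 9.18-fold, Stat3 2.80-fold and Jak2 2.41-fold (adjusted p = 1.20e-05, 2.24e-06 and 4.65e-06).

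**Figure D2:**
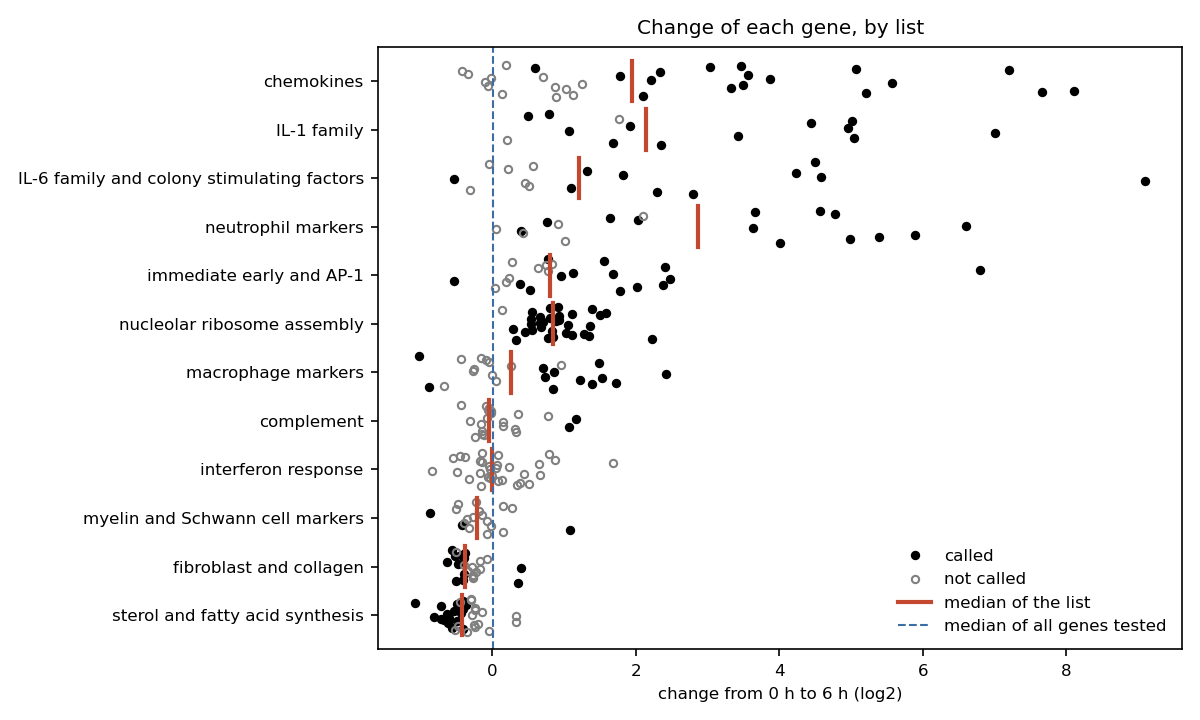
Change from 0 h to 6 h (log2) of every gene tested in 12 lists, each point 1 gene, filled where called, with the median of the list as a red bar and the median of all genes tested, 0.01, as a dashed line. Neutrophil markers had a median of 2.86, or of 1.51 over members above background on all 6 arrays, where the IL-1 family had 1.91, and the sterol and fatty acid list had −0.42.

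Markers of neutrophils rose. Of 18 tested, 13 were called higher and none lower (median change 2.86). With normexp 9 were called higher. Over the 10 above background on all 6 arrays 7 were higher, with a median change of 1.51. Their summed signal was 2.78 to 3.71 times the 75th percentile at 0 h, 5.53 to 7.31 at 1 h and 20.1 to 28.9 at 6 h, with no overlap between 0 h and 6 h. Such a sum adds linear signals, so the brightest members of a list weigh most in it. Markers of T and B cells had sums of 1.41 to 1.69 in arrays of 0 h and of 1.91 to 2.18 in arrays of 6 h, also without overlap, with 2 of 10 called higher (median change 0.89, or 0.76 over the 6 above background on all 6 arrays). With normexp 0 of these 10 were called (median change 0.3), and with the 6 arrays alone or the replicate number as a block 4 were. Quantile normalization gave a median of 0.44. Of 7 erythroid markers 1 was called higher, none of the 6 above background on all 6 arrays, and their sums overlapped. The part of other blood cells in the result was not tested. S100a8, which with S100a9 forms the calprotectin of neutrophil cytosol, had levels of −2.70, −2.88 and −2.92 at 0 h and of 2.67, 3.08 and 3.43 at 6 h (change 5.89, SE 0.37, adjusted p = 2.69e-07). Its partner S100a9 went from −2.10, −2.07 and −3.06 to 2.69, 2.98 and 3.27 (change 5.39, SE 0.42, adjusted p = 1.54e-06). Mmp8, the collagenase of neutrophil granules, was below background on all arrays of 0 h and at least 27.2-fold higher at 6 h (adjusted p = 8.81e-07). Its change lay between 2.66 and 6.73 across the alternatives. Mpo, made in the marrow before a neutrophil enters the blood, changed by 0.04 (adjusted p = 0.956).

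Several of the genes above background on all arrays of 6 h and none of 0 h are known from neutrophils and other myeloid cells, among them the lectins Clec4d and Clec4e and the cystatins Csta and Stfa2l2. They were below background on all 3 arrays of 0 h and were at least 26.6-fold, 20.6-fold, 15.4-fold and 24.2-fold higher at 6 h. Across the alternatives their smallest changes were 2.6, 2.47, 2.08 and 2.56 on the log2 scale. Mcemp1 was at least 25.7-fold higher, and Fcnb and Serpinb10, measured on all 6 arrays and known from myeloid cells, each rose by 4.32 on the log2 scale (adjusted p = 8.64e-06 and 1.43e-05). Reg3g, a secreted lectin, had levels of −0.98, −1.33 and −1.30 at 6 h and was at least 39.5-fold higher (adjusted p = 1.34e-07). The 20 genes with the largest rises were chosen as the largest called changes on these same arrays. They kept their calls under every alternative at the same threshold that tested them, which is not independent support. Of 18 genes of vascular adhesion, with which endothelium and leukocytes catch each other, 7 were called higher and 1 lower (median change 0.79). With normexp 3 were higher, and without replicate 2 of 6 h 4 were. Of the 16 above background on all 6 arrays 5 were higher (median change 0.45). The median was 0.5 if replicate 1 of 0 h was dropped and 0.51 with quantile normalization. Of 15 endothelial markers 2 were higher and 2 lower. Icam1 went from 2.14, 2.02 and 2.46 to 3.80, 4.0 and 3.81 (change 1.66, SE 0.17, adjusted p = 2.11e-05), and Selp, below background at 0 h, was at least 5.02-fold higher (adjusted p = 0.00017, lost with normexp). Vcam1 changed by −0.29 (adjusted p = 0.264).

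Markers of macrophages were divided. Of 23 tested, 10 were called higher and 2 lower, with a median change of 0.25, which became 0.45 or 0.08 when replicate 3 of 0 h or of 6 h was dropped. Their summed signal lay between 232 and 270 times the 75th percentile in the arrays of 0 h, below the 289 to 345 in those of 6 h. Cd14, the co-receptor for bacterial lipid, had levels of 1.91, 1.81 and 1.72 at 0 h and of 3.19, 3.0 and 3.71 at 6 h (change 1.48, SE 0.24, adjusted p = 0.000599). The scavenger receptor Msr1 rose 3.29-fold (adjusted p = 0.000963) and was also higher than at 3 h (change 1.48, adjusted p = 0.0139). Adgre1, the F4/80 antigen of mature macrophages, moved the other way, from 0.48, 0.58 and 0.52 to −0.49, −0.70 and −0.32 (change −1.03, SE 0.20, adjusted p = 0.00199). For each of these genes the groups did not overlap, as in 46.6% of all genes. Cd68, Mrc1, Aif1 and Csf1r changed by 0.25, 0.04, −0.17 and −0.26, and none was called. Of 18 Toll-like receptors and their adaptors 7 were called higher and 1, Tlr3, lower, with 4 higher under normexp. Tlr2, which senses bacterial lipoprotein, rose 4.58-fold (adjusted p = 0.000173), and Tlr4 changed by 0.40 (adjusted p = 0.0646) but was higher than at 1 h by 1.27 (adjusted p = 8.03e-05). With the 6 arrays alone Tlr4 was called higher than at 0 h.

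**Figure D3:**
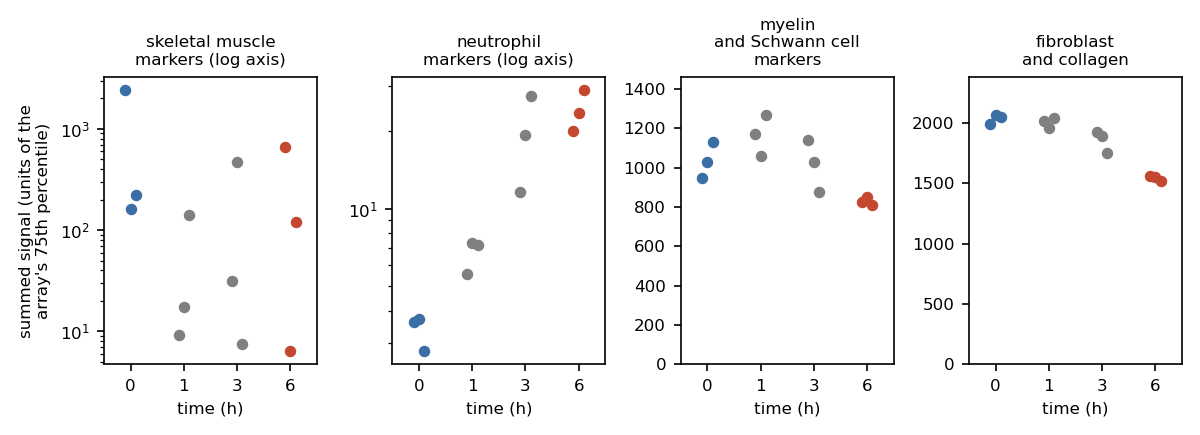
Summed signal of the markers of skeletal muscle, neutrophils, myelin and Schwann cells, and fibroblasts and collagen (in units of the array's 75th percentile, the first and second panels on a log axis), each point 1 array at 0, 1, 3 or 6 h. Neutrophil sums lay between 2.78 and 3.71 in arrays of 0 h, below the 20.1 to 28.9 in arrays of 6 h, and muscle sums overlapped between times, with 1 array of 0 h at 2400.

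Immediate early genes, which switch on within minutes of a stimulus without new protein, were set against both 0 h and 1 h. Of 22 tested, 13 were called higher at 6 h than at 0 h and 1 lower, 9 being higher with normexp, while against 1 h 2 were higher and 15 lower. Fos, a subunit of AP-1, had levels of −1.60, −0.10 and −1.59 at 0 h and of 1.1, 1.32 and 1.5 at 6 h (change 2.40, SE 0.33, adjusted p = 0.00018). Its mean at 1 h was 4.34, and from 1 h to 6 h it fell by 3.03 on the log2 scale (adjusted p = 3.84e-05). Egr1 and Junb had the same order, with changes of 1.56 and 2.47 from 0 h and of −2.32 and −1.18 from 1 h. Nr4a1 and Jun were no longer distinguishable from 0 h, with changes of 0.04 and 0.22 (adjusted p = 0.802 and 0.323), and from 1 h to 6 h they changed by −1.39 and −1.66.

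Fosl1, the late partner of Jun in AP-1, did not follow that order. It had levels of −2.96, −3.58 and −3.79 at 0 h and of 3.64, 3.29 and 3.10 at 6 h, a 111-fold rise (change 6.79, SE 0.26, adjusted p = 1.38e-09). At 1 h its mean was −1.61, so that 6 h exceeded 1 h by 4.95 (adjusted p = 1.11e-07), and against 3 h it differed by 0.45 (adjusted p = 0.357). Myc, a driver of cell growth, rose 4.05-fold (adjusted p = 5.40e-05) and differed from 1 h by 0.01. In the NF-kB pathway 9 of 25 genes were called higher and 1 lower (median change 0.30, or 0.16 with a shift to the median). Bcl3, a nuclear co-factor, rose 5.43-fold, Birc3 3.46-fold and Rel 3.13-fold (adjusted p = 8.55e-06, 0.000201 and 6.88e-05). Nfkbia, the inhibitor that NF-kB itself induces, was not called against 0 h (change 0.21, adjusted p = 0.492) and lay below 1 h (change −1.61, adjusted p = 0.000193).

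A list of genes that the study placed in a network was chosen by it on these same samples, so the direction of that list is not independent evidence. Of 23 tested, 15 were called higher and none lower, and 8 were higher with normexp. Tnfrsf1a, a receptor of tumour necrosis factor, had levels of 2.71, 3.13 and 3.04 at 0 h and of 4.04, 4.24 and 4.06 at 6 h, a 2.22-fold rise (adjusted p = 0.000128). Birc2, an inhibitor of apoptosis like Birc3, went from −0.92, −1.01 and −0.89 to 0.31, 0.09 and 0.12 (change 1.11, SE 0.09, adjusted p = 2.60e-06). Tnf, the ligand, was well above background on none of the arrays of 0 h and 2 of 3 of 6 h (adjusted p = 0.0045), and its call was lost with normexp, in the deposited matrix and with the 6 arrays alone.

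**Figure D4:**
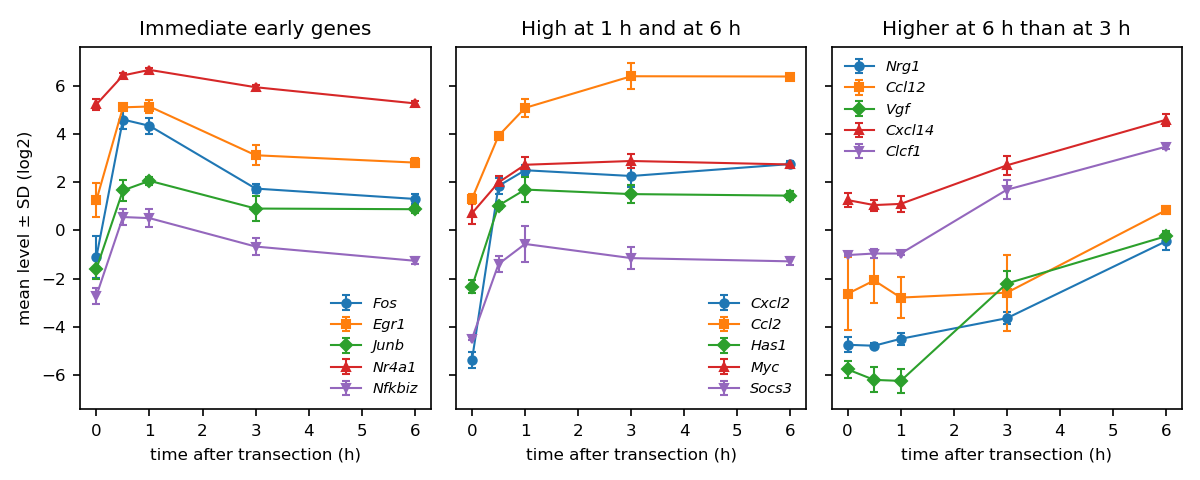
Mean level with SD (log2 signal relative to the array's 75th percentile, 3 arrays a point) of 15 genes at 0, 0.5, 1, 3 and 6 h after transection. Fos, Egr1, Junb, Nr4a1 and Nfkbiz were highest at 0.5 h or 1 h, while Nrg1, Ccl12, Vgf, Cxcl14 and Clcf1 were higher at 6 h than at 3 h.

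Growth factors went both ways, with 10 of 32 called higher and 6 lower (median change 0.24). With normexp 4 were higher and 1 lower, with the 6 arrays alone 2 were lower, and without replicate 1 of 0 h or replicate 2 of 6 h 3 were lower. Of the 27 above background on all 6 arrays 6 were higher and 7 lower (median change 0.14). The rises were led by ligands of the EGF receptor family. Nrg1, the axonal signal that Schwann cells also make after injury, had levels of −5.04, −4.43 and −4.74 at 0 h and of −0.26, −0.24 and −0.85 at 6 h, a 19.6-fold rise (change 4.29, SE 0.20, adjusted p = 1.32e-08). Across the alternatives that change lay between 3.19 and 4.49. Areg and Ereg were below background on all arrays of 0 h and were at least 12.6-fold and 4.72-fold higher (adjusted p = 1.62e-08 and 3.66e-05), calls that were lost with normexp. Tgfa, a further ligand of the family, fell by 0.70 on the log2 scale (adjusted p = 0.0135), with its call lost under 5 alternatives. The neurotrophic factor Gdnf changed by 0.36 and was not called (adjusted p = 0.321). Bdnf, a related factor, was well above background on 1 of 3 arrays of 0 h and 2 of 3 of 6 h and was not called (adjusted p = 0.171).

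Of 22 genes known to respond in injured Schwann cells, 6 were called higher and 3 lower (median change 0.39), and 3 were higher with normexp. A shift to the median gave 4 higher and 4 lower (median change 0.24). Of the 18 above background on all 6 arrays 4 were higher and 3 lower. Gfap, the filament of non-myelinating and repair Schwann cells, had levels of −4.54, −4.29 and −4.11 at 0 h and of −0.72, −0.81 and −0.89 at 6 h (change 3.5, SE 0.19, adjusted p = 6.03e-08). Shh, a hedgehog ligand that injured Schwann cells make, was well above background on 2 of 3 arrays of 0 h and all 3 of 6 h. It was called higher (adjusted p = 0.000856, lost with normexp), with a change between 0.88 and 2.78 across the alternatives. Olig1, a transcription factor of the glial lineage, fell by 1.25 on the log2 scale (adjusted p = 0.000927, lost with normexp). Ngfr and Gap43, which mark repair cells later, changed by 0.42 and −0.59 and were not called (adjusted p = 0.0947 and 0.101). Gap43 was called lower with a shift to the median and if replicate 3 of 0 h was dropped. Vgf, a secreted neuropeptide precursor, went from −5.92, −6.00 and −5.36 to −0.24, −0.03 and −0.44, a 45.9-fold rise (adjusted p = 9.48e-08). Its change lay between 3.75 and 5.72 on the log2 scale across the alternatives. Dio3, which inactivates thyroid hormone, went from −3.0, −3.59 and −4.12 to 0.62, 0.56 and 0.55, a 17.7-fold rise (adjusted p = 7.53e-06). The groups of Gfap did not overlap, as in 46.6% of all genes, and for Vgf and Dio3 the rule that named them required this.

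Enzymes that cut matrix and their inhibitors also moved both ways, with 10 of 25 called higher and 5 lower (median change 0.32). With normexp 5 were higher and 2 lower, and without replicate 2 of 0 h 2 were lower. Of the 20 above background on all 6 arrays 5 were higher and 5 lower, and the median change was −0.04. Mmp3, a broad matrix protease, was well above background on 1 of 3 arrays of 0 h, with levels of −6.96, −6.35 and −6.04, and had levels of −0.43, −1.36 and −0.76 at 6 h (adjusted p = 1.24e-05). The change lay between 3.27 and 5.85 across the alternatives. Timp1, an inhibitor of these enzymes, went from 4.77, 4.95 and 5.03 to 6.36, 6.41 and 6.35 (change 1.46, SE 0.14, adjusted p = 8.71e-06). The inhibitor Timp4 fell by 0.62 on the log2 scale (adjusted p = 0.0346), a call lost under 10 alternatives. In the plasminogen system and clotting, 10 of 22 genes were called higher and none lower (median change 0.48), 6 being higher with normexp. Over the 21 above background on all 6 arrays 9 were higher and the median change was 0.25. Serpinb2, an inhibitor of plasminogen activators, was below background at 0 h and at least 33.5-fold higher at 6 h (adjusted p = 1.35e-06). Plaur, the receptor of urokinase, rose 8.07-fold (adjusted p = 6.99e-06). Urokinase itself, Plau, changed by 0.71 (adjusted p = 0.0126) and lost its call without replicate 3 of 0 h.

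Genes of hyaluronan and the provisional matrix were called higher in 8 cases of 17 and lower in 2 (median change 0.30). Dropping replicate 1 or 3 of 0 h made that median 0.11 or 0.51, and quantile normalization made it 0.47 with none lower. Ptx3, a pentraxin that binds the hyaluronan coat, had levels of −5.00, −5.24 and −6.29 at 0 h and of 0.35, 0.57 and 0.65 at 6 h (change 6.03, SE 0.50, adjusted p = 2.72e-06). Has1, a hyaluronan synthase, rose 13.6-fold (adjusted p = 3.58e-06) and differed from 1 h by −0.25 (adjusted p = 0.609). Has2, another synthase, changed by 0.30 (adjusted p = 0.362). Cd44, the hyaluronan receptor, went from 1.64, 2.03 and 1.68 to 3.51, 3.55 and 3.43 (change 1.72, SE 0.16, adjusted p = 6.62e-06).

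Genes for assembling ribosomes in the nucleolus rose together. Of 32 tested, 31 were called higher and none lower, with a median change of 0.84, and 28 were higher than at 1 h. Of the 32, 11 were called with at least 2-fold higher signal. The largest was that of Wdr43, a factor of the small subunit, with levels of −4.01, −4.04 and −3.86 at 0 h and of −1.69, −1.73 and −1.81 at 6 h (change 2.23, SE 0.17, adjusted p = 1.54e-06). Nop58, a core protein of the particles that methylate ribosomal RNA, went from 1.58, 1.85 and 1.53 to 2.98, 3.06 and 3.03 (change 1.36, SE 0.15, adjusted p = 2.67e-05). Nucleolin, Ncl, and nucleophosmin, Npm1, rose 1.74-fold and 1.60-fold (adjusted p = 0.000283 and 0.00125). The exception was Dkc1, the pseudouridine synthase, with a change of 0.14. With normexp 22 were called and with a shift to the median 27. The proteins of the finished ribosome did not share the direction: of 84 cytosolic ribosomal protein genes, 2 were called higher and 19 lower (median change −0.15).

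**Figure D5:**
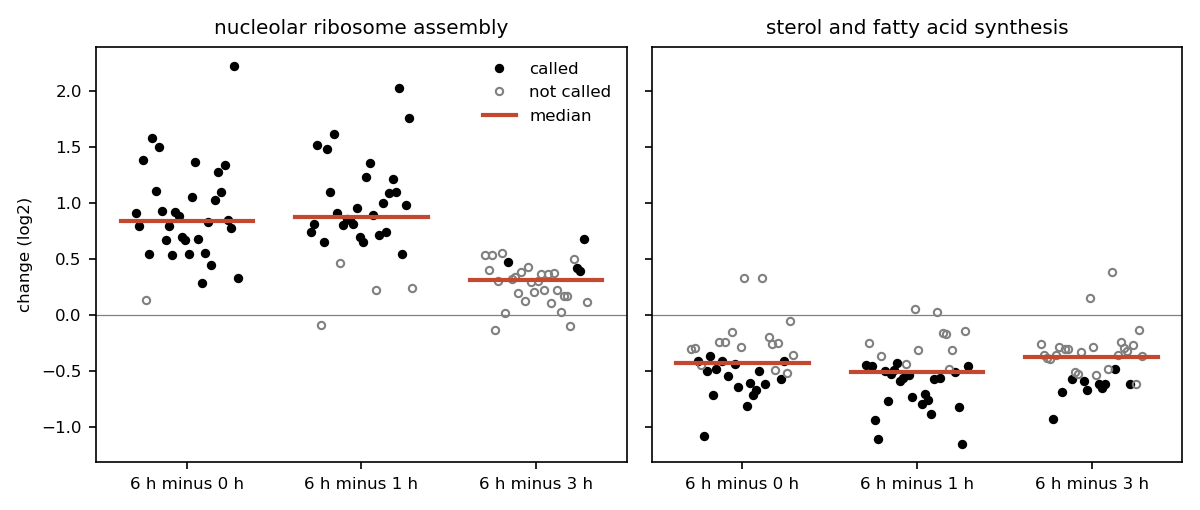
Change (log2) of each gene of nucleolar ribosome assembly and of sterol and fatty acid synthesis at 6 h against 0 h, 1 h and 3 h, each point 1 gene, filled where called, with the median as a red bar. Against 0 h the nucleolar median was 0.84 and the sterol median −0.42, and the comparisons share the arrays of 6 h.

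Genes of oxidative and metal stress were called higher in 12 cases of 32 and lower in 3, with a median change of 0.15 that a shift to the median brought to 0. With normexp 7 were higher. Hmox1, the enzyme that breaks down haem, had levels of −1.07, −0.91 and −1.41 at 0 h and of 2.66, 2.16 and 3.06 at 6 h (change 3.76, SE 0.30, adjusted p = 1.84e-06). The metallothionein Mt2A, which binds zinc and copper, went from 2.23, 2.07 and 1.74 to 5.57, 5.63 and 5.61 (change 3.59, SE 0.19, adjusted p = 4.22e-08). Nqo1 and Srxn1, targets of the same stress factor as Hmox1, changed by 0.10 and 0.20 and were not called (adjusted p = 0.558 and 0.259). Of 20 genes of arginine, nitric oxide and polyamine metabolism 9 were called higher and 1 lower (median change 0.36), with 5 higher under normexp. Nos2, the inducible nitric oxide synthase that uses arginine, was below background at 0 h and at least 4.07-fold higher at 6 h (adjusted p = 7.63e-05, lost with normexp). Gch1, which makes a cofactor of that synthase, rose 3.24-fold (adjusted p = 4.71e-05).

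Falling lists held smaller changes. Of 34 genes of sterol and fatty acid synthesis, which supply lipid for myelin, 18 were called lower and none higher (median change −0.42). Within the scan day, 23 were lower than at 1 h and 10 lower than at 3 h, where 2.57% of all genes were called lower. Dhcr7, the last enzyme of cholesterol synthesis, had levels of 2.98, 3.72 and 3.53 at 0 h and of 2.27, 2.46 and 2.26 at 6 h (change −1.08, SE 0.16, adjusted p = 0.00032). Replicate 1 of 0 h was the lowest of its group, as it was for Sqle, with 3.82, 4.33 and 4.27 and then 3.47, 3.68 and 3.55 (change −0.57, SE 0.15, adjusted p = 0.0112). The call of Sqle was lost with normexp, with the 6 arrays alone and without replicate 2 of 0 h. Hmgcs1, an early enzyme of the pathway, fell 1.46-fold (adjusted p = 0.0261), a call lost under 8 alternatives. The count was 4 with normexp and 5 with the 6 arrays alone. Leaving out replicate 2 or 3 of 0 h gave 8 and 9, and omitting replicate 1 or 3 of 6 h gave 9 and 11.

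Myelin and Schwann cell markers had a median change of −0.21, with 1 of 18 called higher and 2 lower. The median was −0.03 with quantile normalization, −0.36 with a shift to the median, −0.02 in the deposited matrix and −0.12 if replicate 3 of 0 h was dropped. Mag, an adhesion protein of the inner myelin layer, had levels of 2.59, 3.03 and 2.44 at 0 h and of 1.75, 1.82 and 1.88 at 6 h (change −0.87, SE 0.18, adjusted p = 0.00353). Pmp22, a protein of compact myelin, fell 1.34-fold (adjusted p = 0.0179), and its call was lost under 5 alternatives. Mbp changed by −0.28 and was not called (adjusted p = 0.456). Against 1 h, 9 of the 18 were called lower. Sox10, the factor that defines the lineage, changed by 0.14 (adjusted p = 0.454). The summed signal of the list lay between 949 and 1130 times the 75th percentile in the arrays of 0 h, above the 810 to 850 in those of 6 h.

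Fibroblast and collagen genes were called lower in 10 cases of 23 and higher in 2 (median change −0.38), and their sum lay between 1990 and 2070 in the arrays of 0 h, above the 1520 to 1560 in those of 6 h. Col1a1, a chain of the main fibrillar collagen, had levels of 8.47, 8.54 and 8.55 at 0 h and of 8.16, 8.02 and 8.05 at 6 h (change −0.44, SE 0.09, adjusted p = 0.00322), a call lost with normexp, with quantile normalization and in the deposited matrix. The count for the list moved with the processing: 13 were called lower with a shift to the median, 2 with quantile normalization and none with normexp. Of 16 perineurial and tight junction genes 6 were lower and 2 higher (median change −0.22), with 2 lower under normexp. Cldn5, the claudin of endothelial barriers, fell 1.39-fold (adjusted p = 0.00343, lost with normexp). Of 25 genes of cell division 6 were lower and 1 higher. The lower count was 2 with normexp. Dropping replicate 1, 2 or 3 of 0 h made it 3, 2 and 9, and dropping replicate 2 of 6 h made it 3. Cdk1, the kinase that starts mitosis, changed by −0.75 (adjusted p = 0.0147, lost with normexp and without replicate 2 of 0 h). In the respiratory chain 30 of 71 genes were lower and 1 higher (median change −0.33), against 8 lower than at 1 h. This list was counted under none of the alternatives, nor were the lists of ribosomal proteins and proteasome subunits. Whether its count moves with normexp, quantile normalization or leaving out an array was therefore not tested. That includes leaving out replicate 1 of 0 h, the array with the largest muscle signal.

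The largest single falls were smaller than the largest rises. Dcx, a microtubule protein of migrating neurons, had levels of −0.89, −0.63 and −1.99 at 0 h and of −3.10, −3.32 and −3.34 at 6 h (change −2.08, SE 0.37, adjusted p = 0.0011), and was lower than at 1 h as well (change −1.40, adjusted p = 0.0125). Slc6a13, a transporter of GABA, went from −0.15, 0.39 and −0.19 to −2.25, −1.92 and −1.58 (change −1.94, SE 0.21, adjusted p = 3.34e-05). Hhip, a membrane antagonist of hedgehog ligands such as Shh, went from −0.72, −0.79 and −1.23 to −2.28, −2.83 and −2.75 (change −1.71, SE 0.20, adjusted p = 5.92e-05). The rule for these 15 genes required groups that do not overlap, as 46.6% of all genes had in either direction, and 7 of the 15 kept their calls under every alternative to the 75th percentile fit at the same threshold that tested them. Adra2c, a receptor of noradrenaline, fell 3.17-fold and Calml4 3.24-fold (adjusted p = 2.36e-05 and 0.000297). Cntn2, an adhesion protein beside the node of Ranvier, Drd4, a dopamine receptor, and Mas1, a receptor of angiotensin peptides, fell 3.08-fold, 3.06-fold and 3.55-fold, and the calls of all 3 were lost with normexp.

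Some of the falls were already present at 1 h. Tnmd and Kera, genes of tendon and other dense connective tissue, changed by −2.52 and −1.99 from 0 h (adjusted p = 0.00561 and 0.00058, both lost with normexp). Against 1 h they differed by −0.73 and −0.07 (adjusted p = 0.386 and 0.905). Cilp, a cartilage matrix protein, went from 4.72, 4.0 and 3.81 to 2.61, 2.17 and 2.57 (change −1.72, adjusted p = 0.000784) and differed from 1 h by −0.32 (adjusted p = 0.454). Fcrl2 and Tcea3 changed by −1.94 and −1.92 from 0 h and by −0.66 and −0.75 from 1 h, the latter not called for either. The call of Tcea3 against 0 h was lost with the 6 arrays alone. Pak3 changed by −1.61 (adjusted p = 0.0108), with its call lost under 4 alternatives. Ddit4l was high in replicate 1 of 0 h, at 1.09 against −1.58 and −1.37, the array with the largest muscle signal. Its change of −2.31 (adjusted p = 0.0213) was no longer called without that array, nor with normexp, with the 6 arrays alone or without replicate 2 or 3 of 6 h. Of 20 muscle markers 1, Tnni1, was called lower, with a median change of −2.74 from 0 h and of 1.41 from 1 h. Dropping replicate 1 of 0 h made the former −1.5, and dropping replicate 1 or 2 of 6 h made it −4.46 or −0.62. The part of muscle or other tissue around the nerve in these falls was not tested.

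Some lists gave few calls or none. None of 31 interferon response genes was called in either direction by limma, 4 having an unadjusted p under 0.05, and their median change was −0.01. Ifit3 gave a change of 1.68 and Mx1 one of −0.84, neither called. With the 6 arrays alone 1 was higher and 1 lower, and without replicate 3 of 0 h 3 were higher and the median change was 0.31. Ifit3 was called without that array and with the replicate number as a block. Of 21 complement genes 2 were called higher, the receptor C5ar1 and factor B, Cfb, by 1.16 and 1.07 (adjusted p = 0.00222 and 0.0163), and the median change was −0.06. The call of Cfb was lost under 5 alternatives. C3, the central component, changed by 0.35 and was not called, except with the replicate number as a block. Of 15 adipocyte markers none was called (1 with an unadjusted p under 0.05), and of 37 proteasome subunits 2 were higher and 2 lower.

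Between 3 h and 6 h fewer genes were called, 5.36% of all, 758 higher (2.79%) and 699 lower (2.57%) at 6 h. Genes called higher than at both 3 h and 0 h were led by Ccl12 (change 3.42 from 3 h, adjusted p = 0.0282) and Nrg1, a ranking chosen after values had been seen. Nrg1 had means of −4.49 at 1 h and −3.64 at 3 h and of −0.45 at 6 h, so that most of its rise came after 3 h (change 3.19, SE 0.20, adjusted p = 4.26e-06). Cxcl14, a chemokine of monocytes and dendritic cells, had levels of 4.34, 4.83 and 4.59 at 6 h, a mean of 2.70 at 3 h and of 1.1 at 1 h (change from 3 h 1.89, adjusted p = 0.00193). Vgf and Dio3 were higher than at 3 h by 1.96 and 2.65 (adjusted p = 0.0053 and 0.00361). The falls were led by Exo1, an exonuclease of DNA repair, which lay below 3 h by a change of −1.88 (adjusted p = 0.000777). Its mean was higher at 3 h, at 0.08, than at 0 h, at −0.93, and its change from 0 h was −0.87. Ptprr, a phosphatase of MAP kinases, was lower than at 3 h by a change of −1.52 and than at 0 h by −1.38 (adjusted p = 0.00037 and 2.50e-05). This comparison was fragile: normexp left 87 calls and a fit with its 6 arrays alone 11. Of the genes just named, Nrg1 and Dio3 lost this call with normexp, Cxcl14, Exo1 and Ptprr with the 6 arrays alone, and Vgf with either. Ccl12 lost it under both, without each array of 6 h in turn and without replicate 1 or 2 of 3 h.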

How the data were processed

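RNA of 18 nerves or pools (3 arrays at each of 6 time-points) was labelled with Cy3 and hybridised to 1-colour Agilent rat arrays. The deposited intensity values are background-subtracted processed signals from the authors' Feature Extraction files, and a deposited matrix holds log2 values that the authors normalized. Neither says whether an array held 1 rat. Precision is limited by 3 arrays a group.

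From the processed signals, outlier and control spots were left out, log2 values were shifted to each array's 75th percentile and spots of a probe were averaged. A probe was tested where it stood well above background on all 3 arrays of a time-point, which 32116 of 41012 probes did. limma 3.58.1 in R 4.3.3 fitted 1 mean per time-point over all 18 arrays. A call needed a p under 0.01 and an adjusted p under 0.05 (Benjamini-Hochberg). A gene was read from its tested probe with the highest mean over the arrays. Names came from RefSeq accessions for 16336 probes, symbols for 3735 and synonyms for 1099, and 19842 kept the name in the files.

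Genes were named as the 20 largest rises and 15 largest falls among called genes above background on all 6 arrays whose groups did not overlap, the 10 with the largest bounds, and members of the gene lists. Some of these genes are not reported here. The genes and lists were chosen with earlier results of these data known. The genes ranked against 3 h, counts over any probe of a gene, and a filter on the 6 arrays were chosen after seeing the data. Other alternatives were the background correction, the normalization, the filter, the replicate and slide blocks, array weights, the prior, the samples fitted, the threshold and leaving out each of the 6 arrays of a comparison. The fit was tested on simulated data.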

Additional observations from a re-analysis of the deposited data

How the results depend on the processing

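Against 0 h the number of called genes, 6807, became 1826 with normexp (980 higher, 846 lower) and 1824 with an adjusted p under 0.05 and at least a 2-fold change (1567 and 257), and lay between 5268 and 6240 when 1 array was left out. Against 1 h, 6527 became 1756 with normexp, 3278 with the 6 arrays alone and 1465 with the 2-fold threshold. Against 3 h, 1457 became 87 with normexp, 546 with a shift to the median, 929 with no filter on dim probes, 2807 with array weights, 11 with the 6 arrays alone and 288 with the 2-fold threshold, and ranged from 428 to 1071 when 1 of its own arrays was left out. Omitting replicates 1, 2 and 3 of 3 h in turn gave 428, 593 and 1071, and of 6 h 649, 756 and 754. The cause of these differences was not tested. The share of higher calls against 0 h was 48.1%, and became 32.1% with a shift to the median, 58.7% with the 6 arrays alone and 85.9% with the 2-fold threshold. Arrays of 0 h and 6 h with the same replicate number deviated from their group means with correlations of 0.311, 0.291 and −0.013, so the numbers were not taken to pair the samples. With the replicate number as a block 6937 genes were called (3430 higher, 3507 lower). With slide as a random block, which had a correlation of −0.0125 within slides, 6983 were called. Probes below background at 0 h give only a bound.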

Other observations

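Genes of prostaglandin and leukotriene synthesis moved in both directions, 7 of 24 being called higher at 6 h than at 0 h and 4 lower, against 4 and 2 with normexp. Ptges, which makes prostaglandin E2, had levels of −1.32, −0.92 and −1.69 at 0 h and of 1.62, 1.80 and 2.0 at 6 h. It rose 8.68-fold, and its groups did not overlap, as in 46.6% of all genes. The inducible cyclooxygenase Ptgs2 rose 3.26-fold and the receptor Ptger2 4.0-fold. Genes of the leukotriene branch that were lower included Alox5 and Ltc4s, which fell 1.92-fold and 2.9-fold, while Ltb4r, the receptor of leukotriene B4, rose 4.14-fold. The calls of Ptger2, Ltc4s and Ltb4r were lost with normexp.

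Of 22 genes of p53 and growth arrest 9 were called higher and 1, Sesn1, lower, and 4 were higher with normexp. The call of Sesn1 was lost when replicate 1 of 0 h or replicate 2 of 6 h was left out. Cdkn1a, an inhibitor of the cell cycle, rose 3.16-fold and Gadd45b 2.66-fold. Of 22 genes of the TNF superfamily 10 were higher and 2 lower (5 and 1 with normexp, 8 and 2 of the 20 above background on all 6 arrays), led by Tnfrsf12a, which rose 6.77-fold. In the BCL-2 family 4 of 17 were higher and 2 lower, with rises of both protective and death-promoting members: Mcl1 rose 2.06-fold, Bcl2a1 3.75-fold and Bid 2.66-fold. With normexp 2 were higher and the call of Bcl2a1 was lost. Of 19 heat shock genes 4 were higher and 1 lower, Hspa1a rising 3.59-fold. That count moved with the processing, from 1 with the 6 arrays alone to 8 with quantile normalization. Of 11 neuron markers 2 were higher, Calca and Tac1, and 1, Prph, was lower. Tac1, which encodes substance P and whose messenger can lie in axons, rose 7.21-fold, a call lost with normexp.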
